A study of Mus musculus with 2 samples.

Results

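The matrix proteases and their inhibitors described here are the secreted and membrane-bound matrix metalloproteinases (Mmp genes), the ADAMTS proteases, the ADAMTS-like glycoproteins that share their domains but have no protease domain, and the tissue inhibitors of metalloproteinases (Timp genes). Members were the genes with a protein-coding transcript in the deposited annotation and a symbol of the form Mmp, Timp, Adamts or Adamtsl followed by a number. That rule gave 51 genes of the 55536 in the tables: 4 Timp, 23 Mmp, 19 Adamts and 5 Adamtsl genes. The rule itself uses names and annotation, not levels.

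The tissue was gastrocnemius, the calf muscle, of adult male 5xFAD/CAST mice aged 8 to 10 months, which the labels also write as 5xFAD X Cast. 5xFAD is a transgenic line used as a model of Alzheimer's disease, whose transgenes are driven by the neuronal Thy1 promoter, and CAST is a wild-derived inbred strain. Total RNA, 300 ng per library and depleted of ribosomal RNA, was sequenced from 2 biological replicates under separate biosample entries that share a donor entry, and nothing states whether they were separate animals or littermates. The labels hold no untreated, wild-type or other group, so every value below describes this single group and no test between conditions was possible. Values are deposited TPM (a relative level corrected for transcript length) or expected counts (reads assigned to a gene, not corrected for length), and each mean ± SD is over n = 2 libraries. Gene counts summed to 35163957 and 35412221, of which the members held 14530 in replicate 1 and 13938 in replicate 2. All 8 fast-fibre markers were at a median of 10666 TPM, led by Tnnt3, Myh4 and Mylpf, and all 10 fibroblast markers reached 1 TPM in both libraries. The 8 cartilage and bone markers summed to 0.36 and 0.32 TPM, with Bglap, Sp7 and Col10a1 at 0.

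Matrix metalloproteinases are made as inactive zymogens in which a cysteine of the propeptide blocks the catalytic zinc. Removal of the propeptide by furin-type convertases, plasmin or another metalloproteinase frees the zinc, and TIMPs then bind the active site. ADAMTS proteases carry thrombospondin repeats that dock them on the matrix, where they cut proteoglycans, procollagens or von Willebrand factor, while ADAMTS-like proteins bind fibrillin microfibrils. In skeletal muscle these enzymes remodel the sheath around fibres and vessels, which is made mainly by fibroblasts.

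Timp genes held 49.9 ± 0.85% of the summed member TPM, Mmp genes 20.3 ± 0.86%, Adamtsl genes 16.7 ± 0.86% and Adamts genes 13.2 ± 0.85%. Timp2 and Timp3 together held 45.1 ± 1.44%, and the 7 highest genes held 81.5 ± 0.068%. Summed Timp TPM was 2.46 ± 0.062 times summed Mmp TPM and 1.49 ± 0.025 times the sum of the Mmp and Adamts genes. The 51 genes came to 0.0305% and 0.0294% of the protein-coding TPM in replicates 1 and 2. In bulk tissue, fewer cells of a type and less RNA per cell cannot be told apart, and levels of RNA say nothing of enzyme activity.

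**Figure D1:**
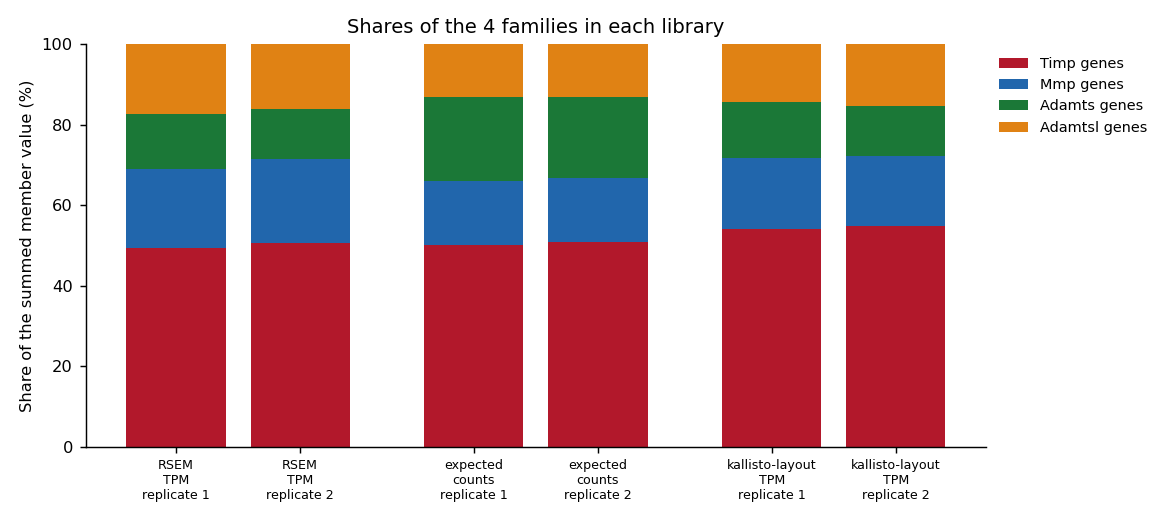
Shares (percent, from 0 to 100) of the summed member value held by the 4 families, for each library and for 3 measures: RSEM TPM, RSEM expected counts and kallisto-layout TPM. Timp genes hold about the same share in both libraries in each measure, while the Adamts share is 20.4% by counts and 13.2% by TPM, counts not being corrected for length.

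Of the 51 members, 14 were at 1 TPM or more in both libraries, against 45.8% of the 22028 protein-coding genes. These were 3 of 4 Timp, 3 of 23 Mmp, 4 of 19 Adamts and 4 of 5 Adamtsl genes. Another 3, all Mmp genes, reached 1 TPM in a single library, and 34 stayed below it in both. The median member was at 0.28 TPM. No read was assigned to 8 members in either library.

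**Figure D2:**
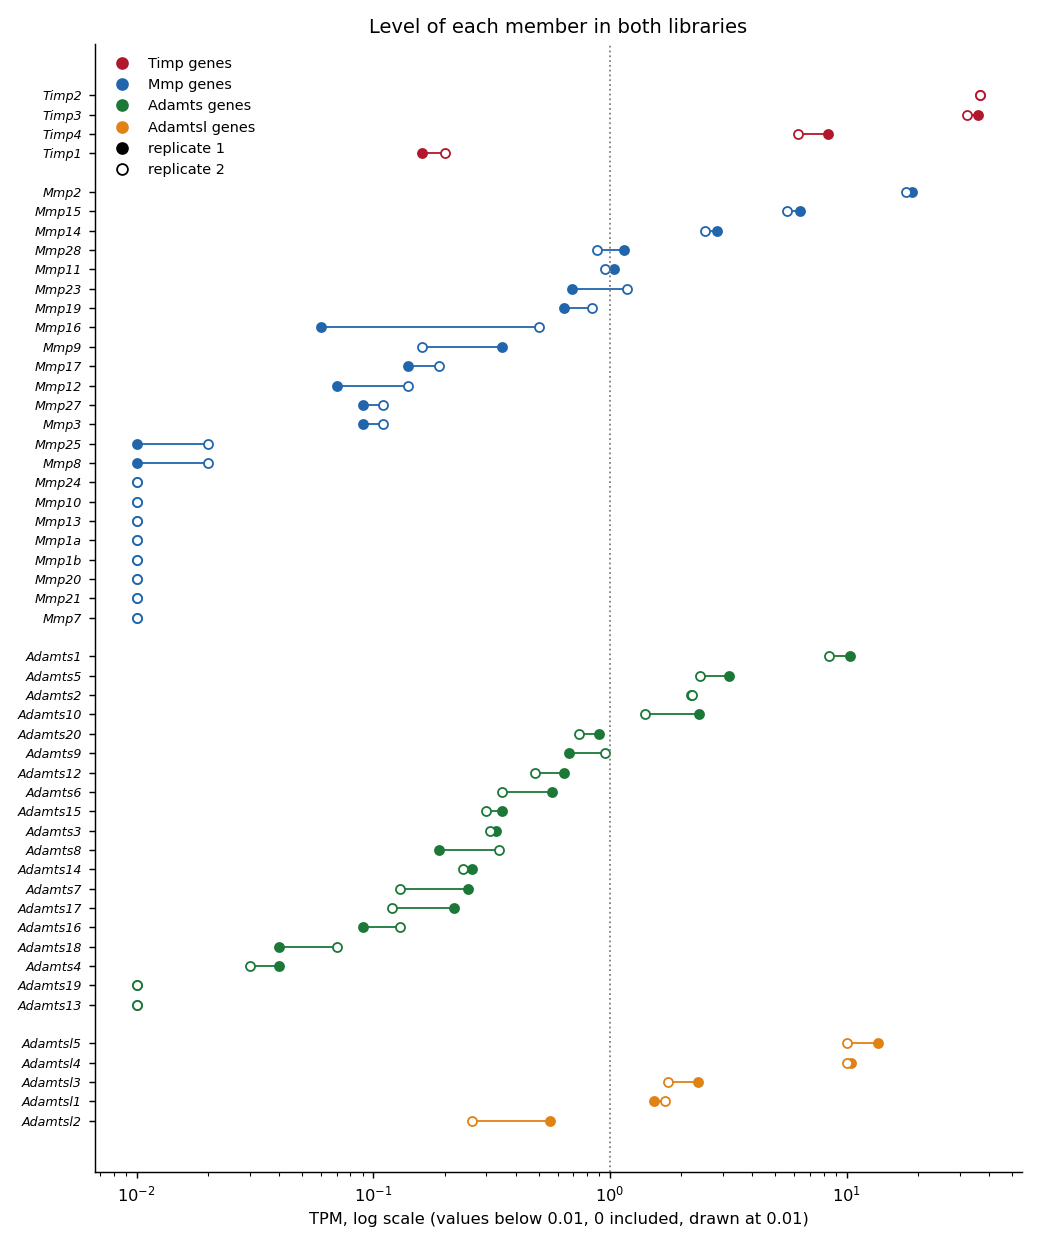
Level of each of the 51 members in TPM on a log axis, with replicate 1 filled and replicate 2 open, joined by a line and ordered by mean within each family; values below 0.01 TPM are drawn at 0.01 and the dotted line marks 1 TPM. Timp2 and Timp3 stand above 30 TPM in both libraries, and the Mmp genes run from Mmp2 near 18 TPM to genes with no reads.

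Timp2, the inhibitor that also forms the complex in which Mmp14 activates pro-Mmp2, was the highest member. It was at 36.69 TPM in replicate 1 and 36.47 TPM in replicate 2 (mean 36.6 ± 0.16), above 93.3% of protein-coding genes. Timp3, the inhibitor that is held in the matrix and that also blocks ADAMTS and ADAM proteases, was at 35.89 and 32.15 TPM (34.0 ± 2.64). Their ranges did not overlap, but in replicate 1 the gap between them was smaller than the SD of Timp3. Timp4, which is known from heart, muscle and fat, was at 8.30 and 6.22 TPM (7.26 ± 1.47), lower in replicate 2. Timp1, the inhibitor that inflammation and injury induce, was at 0.16 and 0.20 TPM from 3 and 4 counts, too few for a precise level. The first bases of the mature inhibitors are shown because they encode the wedge that enters the protease active site, whose first cysteine sits on the zinc. They are the coding bases from the first cysteine codon after the signal peptide, from the annotated transcripts on mm10, with the cysteine codons in capitals.
Timp2 (chr11:118354986-118355012, minus strand): TGCagcTGCtccccggtgcacccgcaa
Timp3 (chr10:86300923-86300949, plus strand): TGCacaTGCtctcccagccatccccag
Timp4 (chr6:115251665-115251691, minus strand): TGCagcTGTgcgcctgcgcacccccag
Timp1 (chrX:20871111-20871137, plus strand): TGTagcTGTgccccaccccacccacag
The pattern was found in 4 of 4 Timp genes and in no other member. Over these 27 bases, Timp1 and Timp4 shared 21, Timp2 and Timp4 shared 20, and Timp1 and Timp3 shared 16, the fewest of the 6 pairs.

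Each Timp gene but Timp2 lies inside a synapsin gene on the opposite strand. Timp3 shares 1733 exon bases with Syn3, which had 7 and 9 counts against 4041 and 3855 for Timp3. Timp4 shares 90 exon bases with Syn2, which had 4 and 9 counts against 765 and 559. Timp1 shares none with Syn1. The library kit keeps strand, but no source used here states the strand setting of the counting, so reads from overlapping opposite genes cannot be assumed to be separated.

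Among the proteases, Mmp2, gelatinase A, which cuts denatured collagen and collagen IV, was highest. It was at 18.87 and 17.83 TPM (18.4 ± 0.74), from 1065 and 1068 counts. Mmp15 and Mmp14 are membrane-anchored (MT2-MMP and MT1-MMP), and Mmp14 is an activator of pro-Mmp2. Mmp15 was at 6.38 and 5.62 TPM (6.0 ± 0.54) and Mmp14 at 2.82 and 2.52 TPM (2.67 ± 0.21). The ranges of these 3 genes did not overlap. The genes near 1 TPM were Mmp28 (epilysin) at 1.15 and 0.88 TPM, Mmp11 (stromelysin 3) at 1.04 and 0.95 TPM, and Mmp23 at 0.69 and 1.18 TPM. These 3 overlapped with each other. Mmp9, the gelatinase of neutrophils and macrophages, was at 0.35 and 0.16 TPM from 21 and 13 counts. Mmp11 shares 155 exon bases with Chchd10 on the opposite strand, which had 9429 and 9921 counts against 53 and 49 for Mmp11, and what part of the Mmp11 reads comes from Chchd10 was not tested.

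A run of 10 Mmp genes lies on chromosome 9 (mm10, chr9:7272514-7699585, 427 kb), and together these 10 had 10 counts in replicate 1 and 12 in replicate 2. Of the 10, 6 had none in either library: Mmp13 (collagenase 3), Mmp10, Mmp7 (matrilysin), Mmp20 (the enamel protease) and the close copies Mmp1a and Mmp1b. The other 4 were Mmp3 (stromelysin 1), Mmp8 (the neutrophil collagenase), Mmp12 (macrophage elastase) and Mmp27, none above a mean of 0.105 TPM. The 3 Mmp genes at 1 TPM in both libraries were all among the 13 that lie elsewhere. Mmp21 and Adamts13, the von Willebrand factor protease known from liver, were the remaining members without reads. A count of 0 allows up to 3 counts, which for these 8 genes is at most 0.121 TPM (Mmp7, replicate 1) and at least 0.0347 TPM (Mmp20, replicate 2). That limit covers counting error only.

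Adamts1, a protease of versican and aggrecan, led its family with 10.32 and 8.46 TPM (9.39 ± 1.32). Adamts5, the aggrecanase that also clears versican in developing muscle, was at 3.18 and 2.40 TPM (2.79 ± 0.55), lower in replicate 2. Adamts2, which removes the N-propeptide of fibrillar procollagens, was at 2.19 and 2.21 TPM (2.20 ± 0.014). Adamts5 and Adamts2 did not overlap. Adamts10, which acts on fibrillin microfibrils, was at 2.38 and 1.40 TPM (1.89 ± 0.69), overlapping with Adamts2. Per count, Adamts5 had 869 and 698 reads, more than Mmp14 with 178 and 149, although their TPM ranges overlapped, and its single annotated transcript is 10791 bases long. Adamts4, the other aggrecanase, had 4 and 3 counts. Adamts3 and Adamts14, the other procollagen N-proteinases, were at 0.33 and 0.31 TPM and at 0.26 and 0.24 TPM.

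Of the 5 ADAMTS-like genes, 4 were at 1 TPM or more in both libraries. Adamtsl5 was at 13.52 and 10.07 TPM (11.8 ± 2.44), Adamtsl4 at 10.42 and 10.07 TPM (10.2 ± 0.25), Adamtsl3 at 2.36 and 1.76 TPM (2.06 ± 0.42) and Adamtsl1 at 1.54 and 1.70 TPM (1.62 ± 0.11). Adamtsl4 and Adamtsl5 bind fibrillin microfibrils. Their ranges touched at 10.07 TPM, and so their order is not settled. Adamtsl2, which loss-of-function disease links to microfibrils and TGF-beta, was below 1 TPM, at 0.56 and 0.26 TPM.

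The coding sequences separate enzymes from relatives without a catalytic site, and the zinc-binding stretch is shown for the highest proteases of each family and for Mmp13, which had no reads. Its 3 histidine codons and the glutamate codon after the first of them are in capitals. The stretch was searched in frame in every coding transcript with an annotated start codon. It was found in 23 of 23 Mmp and 19 of 19 Adamts genes, and in 0 of 5 Adamtsl and 0 of 4 Timp genes.
Mmp2 (chr8:92839279-92839311, plus strand): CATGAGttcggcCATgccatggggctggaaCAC
Mmp15 (chr8:95368585-95368617, plus strand): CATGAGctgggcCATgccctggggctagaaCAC
Mmp14 (chr14:54437627-54437659, plus strand): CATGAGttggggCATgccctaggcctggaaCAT
Mmp13 (chr9:7276573-7276605, plus strand): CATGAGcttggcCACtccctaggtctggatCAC
Adamts1 (chr16:85799191-85799545, minus strand, across an intron): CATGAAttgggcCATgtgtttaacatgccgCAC
Adamts5 (chr16:85878015-85887826, minus strand, across an intron): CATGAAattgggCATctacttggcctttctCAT
Adamts2 (chr11:50775403-50776134, plus strand, across an intron): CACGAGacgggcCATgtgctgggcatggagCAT
A glycine codon before the last histidine, 7 codons after the first, was present in all 23 Mmp genes and in 13 of 19 Adamts genes. Adamts1, Adamts4, Adamts8, Adamts9, Adamts15 and Adamts20 lacked it. The cysteine switch, whose cysteine holds the zymogen inactive, is shown for the 3 detected Mmp genes with the cysteine codon in capitals.
Mmp2 (chr8:92830765-92830785, plus strand): ccaagaTGTggcaacccagat
Mmp15 (chr8:95366307-95366327, plus strand): ccccgaTGTggggttcctgat
Mmp14 (chr14:54436151-54436171, plus strand): cctcgcTGTggtgttccggat
The search used a fixed pattern, codons for proline, arginine, cysteine, glycine, any amino acid, proline and aspartate. That exact pattern was found in 17 of 23 Mmp genes and in no other member. The 6 Mmp genes without a match were Mmp11, Mmp17, Mmp19, Mmp23, Mmp25 and Mmp28. A missing match, in these or in the Adamts genes, says only that these codons are not in the annotated sequences. Variant forms of the switch were not searched.

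Levels were also deposited per annotated transcript, and the shares given here are of the gene's TPM, not of its reads. The 14 members at 1 TPM in both libraries have 73 annotated transcripts, and in the median gene the leading transcript held 68.3% of the gene's TPM. Timp3-201 held 92.6% and 93.8%, Mmp15-201 97.6% and 100%, and Mmp14-201 96.8% and 80.1%. Mmp2-201 held 67.8% and 67.9%, and most of the rest was Mmp2-203, a transcript of 674 bases annotated as protein-coding. The lead was annotated as protein-coding in 12 of the 14. The exceptions were Adamtsl5, led by Adamtsl5-203 with 27.8% and 34.2%, and Adamts10, led over both libraries by Adamts10-212 with 37.6% and 12.9%, both annotated as retained introns. Protein-coding transcripts held 46.2 ± 0.91% of Adamtsl5 and 14.1 ± 1.58% of Adamts10, so the gene levels of these 2 members overstate their annotated coding RNA. Of the 14, 7 had a coding share of TPM below 90%. A short transcript can hold much TPM from few reads. In replicate 2, Adamtsl3-201, a noncoding transcript of 440 bases, held 25.6% of the gene's TPM from 4.12 counts. The coding Adamtsl3-203 of 7249 bases held 74.4% from 254.88 counts. A coding share of TPM below 90% is therefore not always one of reads. In replicate 2, Adamts10 was led by another transcript, Adamts10-207. These libraries hold total RNA, in which unspliced RNA is also sequenced, and its part in the retained-intron shares was not tested.

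**Figure D3:**
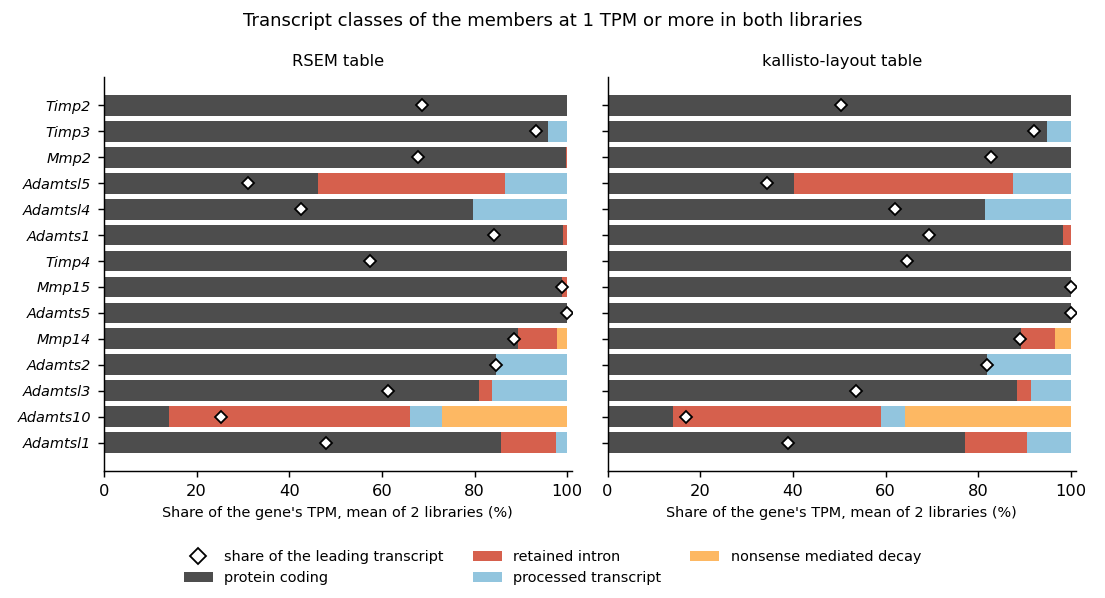
Share of each detected member's TPM (percent, mean of 2 libraries) by annotated transcript class, in the RSEM table (left) and the kallisto-layout table (right); diamonds mark the share of the leading transcript. Adamtsl5 and Adamts10 stand apart with coding shares of 46.2% and 14.1% in the RSEM table, and Timp2, Timp4 and Adamts5 hold coding transcripts only in both tables.

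The same libraries were also deposited in a second quantification, in the layout of kallisto. It gave levels within 2-fold for the members at a mean of 1 TPM or more, but not for all lower ones. Of 17 members at a mean of 1 TPM in either table, 0 differed by 2-fold the same way in both libraries, against 1.13% of 10576 protein-coding genes. Among the 14 members at 1 TPM in both libraries, Timp2 differed most upward, at 45.70 and 47.73 TPM in the second table, 1.28 times its first mean, and Mmp2 most downward, at 14.71 and 14.88 TPM, 0.806 times. The Timp2 difference lay in Timp2-202, a transcript of 718 bases that held 31.2 ± 1.41% of the gene in the first table and 49.7 ± 0.14% in the second. By the mean of both libraries, the leading transcript was the same in both tables in 13 of 14 genes. Of these, Adamts5 has a single annotated transcript and could not differ. Adamts10-212 led Adamts10 by its mean only, with 0% in replicate 2 of the second table. Adamtsl4 was the exception, with Adamtsl4-201 at 42.6% in the first table and Adamtsl4-202 at 62.0% in the second. Below 1 TPM, Mmp12 had 2 and 1 counts in the first table and 28.48 and 17.96 in the second, which gave most of its TPM to Mmp12-206, a retained intron. Adamts4, Adamts18, Adamts19 and Mmp25 were also past 2-fold by mean TPM, each higher in the second table. Adamts4 went from 0.035 to 0.079 TPM and Adamts18 from 0.055 to 0.15 TPM, all from few counts.

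The ratio of replicate 2 over replicate 1 was taken on counts after TMM scaling, with an exact 95% interval that covers counting error only. Of 15 members with a mean count of 100 or more, 0 differed by 1.5-fold (1.22% of 9741 genes did) and 0 by 2-fold (0.298% did). The median log2 ratio was -0.01 for the members and 0.00 for all genes. Of the 15, 8 were lower in replicate 2, against 49.3% of all genes, a count that other scalings change. The counting interval lay apart from 0 in 5 of 15, against 24.3% of all genes, with 3 higher (12.4% of all genes) and 2 lower (11.9%). Timp2 (log2 ratio 0.16, interval 0.08 to 0.24), Adamts2 (0.26, 0.04 to 0.47) and Adamts9 (0.36, 0.01 to 0.72) were higher in replicate 2. Timp4 (-0.40, -0.56 to -0.24) and Adamts5 (-0.26, -0.41 to -0.12) were lower. By deposited TPM, Timp2 had a log2 ratio of -0.0087, on a scale where the median of all genes was -0.13. Over 14370 genes the chi-square of the counts between the libraries, over its degrees of freedom, was 8.99, above what sampling alone gives. It is a pooled, squared measure in which genes with many counts weigh most. The source of that spread was not tested. Below a mean of 100 counts, Mmp28 went from 78 to 44 counts (log2 ratio -0.77, -1.34 to -0.22), Adamts12 from 117 to 73 (-0.63, -1.07 to -0.19) and Adamts8 from 17 to 33 (0.99, 0.12 to 1.95). These were the 3 past 1.5-fold of the 28 members with a mean count of 20 or more, against 5.29% of all such genes.

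**Figure D4:**
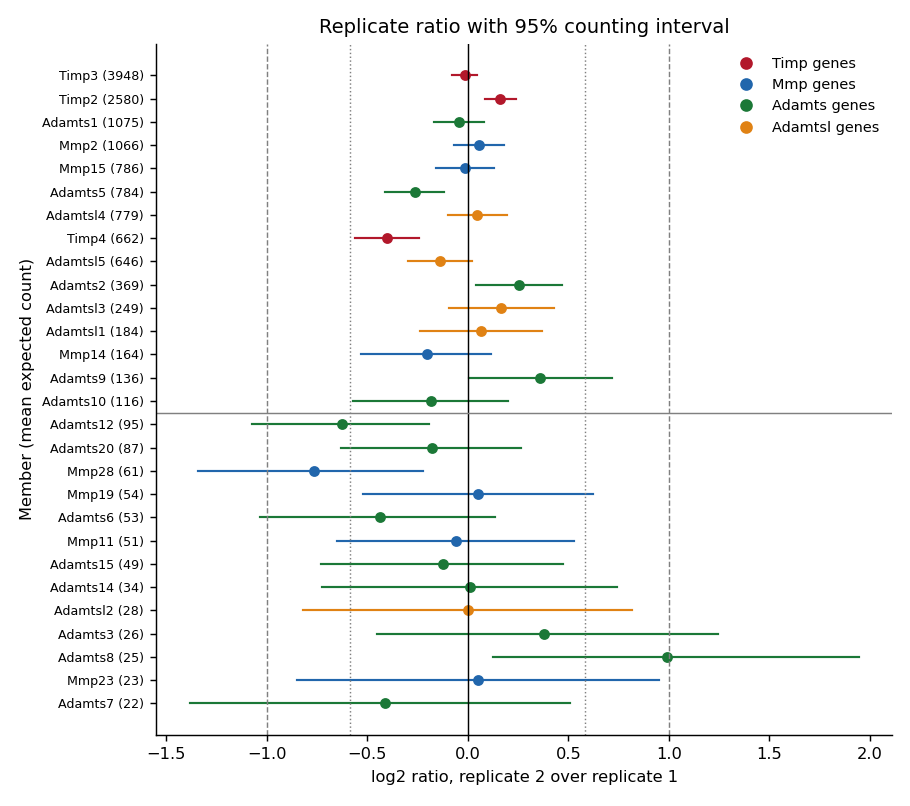
Log2 ratio of replicate 2 over replicate 1 (points) with the 95% counting interval (lines) for the 28 members with a mean count of 20 or more, ordered by mean count, which is given in brackets; dotted lines mark 1.5-fold, dashed lines 2-fold, and the horizontal line a mean count of 100. Above that line every point lies within 1.5-fold, and Timp4 at -0.40 is the farthest from 0.

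Marker genes of several cell types also differed between the libraries. Endothelial markers summed to 85.75 TPM in replicate 1 and 64.01 TPM in replicate 2. Their counting interval was below 0 in 7 of 9 with a mean count of 100 or more, against 11.9% of all such genes. Cdh5, Egfl7 and Pecam1 were highest, and Kdr, the main VEGF receptor, was at a log2 ratio of -0.79 and Emcn at -0.60. Adipocyte markers summed to 229.7 and 166.3 TPM, with 6 of 7 intervals below 0 (11.9% of all such genes) and Cfd higher (log2 ratio 0.26). Fabp4, Cfd and Adipoq had the highest levels, and Lep, the fat hormone leptin, was at -0.86. Smooth muscle and pericyte markers summed to 216.2 and 179.3 TPM, with 6 of 9 intervals below 0 (11.9% of all such genes). Rgs5, Abcc9 and Acta2 were highest, and Kcnj8 was at -0.63. Fibroblast markers, led by Gsn, Dcn and Col1a2, summed to 562.1 and 540.0 TPM. On counts, 8 of 10 had a ratio above 0 and 2 below. The counting interval was above 0 in 5, against 12.4% of all genes, and below 0 in none. Tenocyte markers were led by Fmod, Thbs4 and Chad. They had 5 of 6 ratios above 0 and 3 of 6 intervals above 0 (12.4% of all such genes), with Kera at 0.81. Of the leukocyte markers, 7 of 10 reached 1 TPM, led by Lyz2, Cd74 and C1qb. None of 6 intervals lay apart from 0, against 24.3% of all such genes. Of 7 satellite cell markers, 3 had a mean count of 100 or more: Sdc4, Cdh15 and Chodl, the highest. They had 3 of 3 ratios below 0 and 1 of 3 intervals below 0, that of Sdc4 (11.9% of all such genes). Below that count the markers were mixed. Pax7 went from 56 to 80 counts (log2 ratio 0.56, 0.06 to 1.09) and Calcr from 5 to 11. Myf5 and Vcam1 had ratios below 0, and among these only the interval of Pax7 lay apart from 0. The part of these cell types in the ratios of Timp4, Adamts5 and the other members was not tested.

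The effective length that enters TPM, which depends on how reads are shared among transcripts, also differed between the libraries. It differed by 0.3 log2 or more in 2 of 15 members with a mean count of 100 or more (6.61% of all such genes) and in 7 of 13 with 20 to under 100 (22% of all such genes). Adamts10 had an effective length of 2073 bases in replicate 1 and 2824 in replicate 2, and its log2 ratio was -0.73 by TPM and -0.18 by counts. Adamtsl3 had 3958 and 5422 bases, and ratios of -0.40 and 0.17. Mmp23 had 23 counts in each library and 1310 and 718 bases, which gave its 0.69 and 1.18 TPM.

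Genes that act with the members were described from lists of known partners. Of 13 zymogen activators, 6 reached 1 TPM in both libraries, led by Furin, the convertase that activates membrane-type Mmp and Adamts zymogens, at 25.27 and 20.71 TPM, Plau (urokinase) at 10.55 and 10.53 TPM and Hpn (hepsin) at 9.35 and 8.07 TPM. Plg, the plasminogen that urokinase activates, was below 0.1 TPM. Of 12 other protease inhibitors, 5 were detected, led by Cst3 (cystatin C) at 284.6 and 266.4 TPM, Serpine2 at 34.37 and 30.25 TPM and Serpinh1, the collagen chaperone, at 16.01 and 15.06 TPM. Of 16 other extracellular metalloproteinases, 8 were detected, with Ece1 at 36.47 and 25.06 TPM, Adam9 at 27.28 and 24.91 TPM and Adam10 at 7.73 and 6.0 TPM. Timp2 and Timp3 were thus each above every one of the Adam genes listed. Of 10 endocytic and docking receptors, 6 were detected, led by Bsg, the inducer of metalloproteinases known as CD147, at 260.7 and 252.7 TPM, Itgb1 at 75.77 and 73.84 TPM and Itgav at 22.39 and 16.34 TPM.

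Of 21 matrix substrates, 17 reached 1 TPM in both libraries, led by Dcn (decorin) at 144.8 and 136.6 TPM, Col1a2 at 44.58 and 51.19 TPM and Col1a1 at 40.28 and 46.29 TPM. The cartilage and brain proteoglycans Acan, Bcan and Ncan were below 0.1 TPM. Of 13 procollagen and fibrillin partners, 12 were detected, led by Pcolce, the procollagen proteinase enhancer, at 15.75 and 13.01 TPM, Tgfb2 at 9.56 and 8.52 TPM and Mfap5, a microfibril protein, at 7.30 and 6.96 TPM. In these 6 lists, no gene with a mean count of 100 or more differed by 1.5-fold between the libraries. Of 17 counted substrates, the counting interval was above 0 in 5 (12.4% of all such genes) and below 0 in 5 (11.9%). Among them, Col1a2 at 0.36 and Col1a1 at 0.33 were higher, and the basement membrane collagens Col4a1 at -0.31 and Col4a2 at -0.29 lower.

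The promoters of detected members had a higher median CpG count than those of the others, which include all 10 Mmp genes of the chromosome 9 run. RefSeq promoters (GRCm38.p6, 250 bases before to 50 after the start) matched 36 members. The 15 without a match include the detected members Mmp2, Adamts5, Adamts10 and Adamtsl1. The start nearest to the annotated gene start was used, which lay 61068 bases from it for Adamts20 and 3994 bases for Mmp11. The 10 at 1 TPM in both libraries had a median of 24 CpG, the 26 others 7.5, and all 32851 promoters 7. The TATA box letters TATAAA, anywhere in the window on either strand, were in 1 of the 10 and 10 of the 26, against 13.6% of all promoters. The AP-1 letters TGAGTCA, on either strand, were in 0 of the 10 and 6 of the 26, against 5.20% of all, and the GC box GGGCGG in 9 of the 10 and 12 of the 26, against 35.7%. The 10 Mmp genes of the chromosome 9 run had a median of 1 CpG, 8 with TATAAA, 6 with TGAGTCA and 0 with GGGCGG. These are counts of letters over few genes that share a family and a locus, with no test. Each promoter of the run had at most 4 CpG, so the run lowers the median of the 26 others. It also held 8 of the 10 windows with TATAAA and all 6 with TGAGTCA among the 26. No median was taken without the run, so 24 against 7.5 does not describe members away from it. Away from the run, most of the others had more CpG than the median of all promoters, among them Adamts14 with 44, Adamts3 with 41 and Adamts9 with 25. Adamts13 and Mmp21, also away from it, had 2 each. Timp4, at 7.26 TPM with 2 CpG, and Mmp24, at 0.005 TPM with 44 CpG, were likewise among those outside this order. The 250 bases before the start show the contrast between a detected member, the detected member with the TATAAA letters, and 2 genes of the run. Capitals mark CpG in Adamtsl4, and TATAAA or TGAGTCA on either strand in the others.
Adamtsl4 (chr3:95687918-95688167, minus strand): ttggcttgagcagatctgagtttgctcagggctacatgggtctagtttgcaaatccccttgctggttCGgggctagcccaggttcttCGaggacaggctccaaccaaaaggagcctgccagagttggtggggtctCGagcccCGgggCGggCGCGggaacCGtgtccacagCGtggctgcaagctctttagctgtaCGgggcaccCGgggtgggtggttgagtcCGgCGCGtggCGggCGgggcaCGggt
Adamts1 (chr16:85803114-85803363, minus strand): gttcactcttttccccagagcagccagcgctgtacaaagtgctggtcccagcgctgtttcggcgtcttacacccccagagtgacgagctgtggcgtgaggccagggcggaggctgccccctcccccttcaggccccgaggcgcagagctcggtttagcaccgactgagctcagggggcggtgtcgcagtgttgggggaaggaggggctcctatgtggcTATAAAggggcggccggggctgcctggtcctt
Mmp13 (chr9:7272264-7272513, plus strand): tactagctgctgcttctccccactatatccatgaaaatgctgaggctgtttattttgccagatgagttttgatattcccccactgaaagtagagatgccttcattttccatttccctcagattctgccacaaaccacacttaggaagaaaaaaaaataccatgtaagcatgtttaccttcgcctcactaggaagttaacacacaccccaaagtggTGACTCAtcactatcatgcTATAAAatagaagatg
Mmp3 (chr9:7445572-7445821, plus strand): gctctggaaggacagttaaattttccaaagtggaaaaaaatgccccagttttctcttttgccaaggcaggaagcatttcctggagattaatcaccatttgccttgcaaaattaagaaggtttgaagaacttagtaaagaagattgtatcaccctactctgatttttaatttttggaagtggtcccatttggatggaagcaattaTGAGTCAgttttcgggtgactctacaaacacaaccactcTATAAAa
Adamtsl4 had 17 CpG in these bases, and Mmp13 and Mmp3 had 1 each. In Mmp13 the AP-1 letters began 35 bases and the TATA letters 16 bases before the start, and in Mmp3 46 and 7 bases. Adamts1 had its TATA letters 32 bases before the start.

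**Figure D5:**
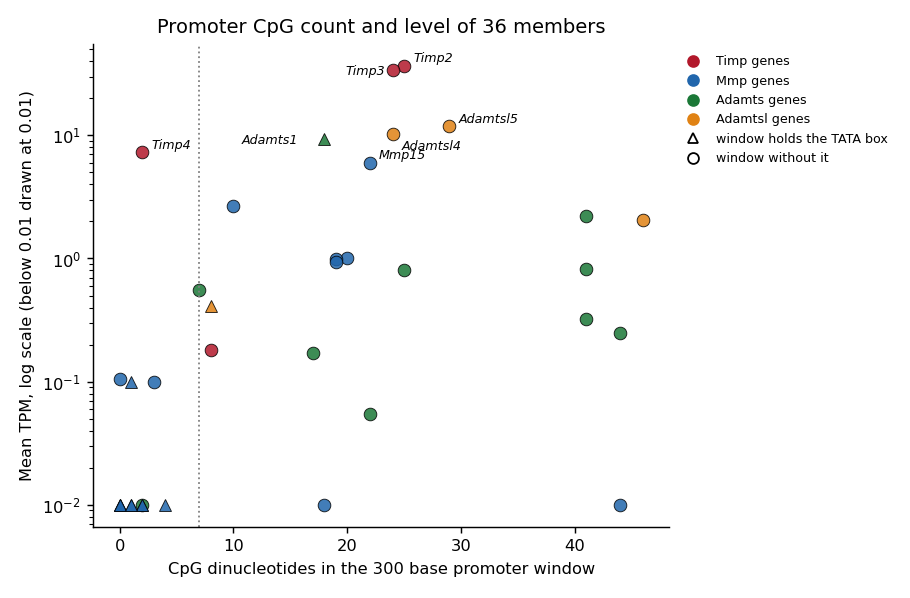
CpG dinucleotides in the 300-base RefSeq promoter window (x axis) against the mean TPM of 2 libraries on a log axis (y axis, values below 0.01 drawn at 0.01) for 36 members; triangles hold the TATA box letters and the dotted line is the median of all promoters, 7 CpG. The Mmp genes of the chromosome 9 run gather at the lower left with at most 4 CpG, and Timp4 is the detected member with few CpG.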

How the data were processed

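Deposited tables gave, for each library, RSEM expected counts and TPM per gene and per transcript, and estimated counts and TPM per transcript in the layout of kallisto, on mm10 with GENCODE M21, per the file headers and the notes deposited with them. No source used here names the aligner, the program versions or the strand setting of the counting. The deposited posterior SD of the counts was 0 in both libraries for all 51 members and was not used. The effective length and the percent of each gene's abundance per transcript were deposited too, and transcript shares were recomputed here from TPM. The kallisto-layout values were summed per gene.

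Spike-in RNA held 0.526% and 0.473% of all counts and was left out of library sizes, with other non-gene rows. Expected counts were rounded. TMM factors (edgeR 4.0.16, genes of mean count 10 or more) were 1.0217 and 0.9788, and log2 ratios used a prior of 0.5 with exact Clopper-Pearson 95% intervals. A member counted as detected at 1 TPM or more in both libraries, and the quantification contrast used a pseudocount of 0.1 TPM. The ratio code was tested on simulated counts. The 3 members of highest mean TPM in each family, and any past 1.5-fold at 100 mean counts, were given in full, with the 3 highest genes of each pathway list. The members and lists were chosen with earlier results of these data known. With 1 group of 2 libraries no test between conditions was made, and replicate differences may be technical. DESeq2 1.42.0 size factors served as an alternative. Results for 1 marker list and 1 overlapping gene are not reported here.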

Additional observations from a re-analysis of the deposited data

How the results depend on the processing

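Detected members numbered 14, and 20 at a minimum of 0.5 TPM, 11 at 2 TPM, 15 in the kallisto-layout table and 15 to 16 from a single library. By expected counts the shares were 15.9% for Mmp, 20.4% for Adamts and 13.2% for Adamtsl genes, with Timp over Mmp at 3.19. In the kallisto-layout table they were 54.5% for Timp, 17.5% for Mmp and 15.0% for Adamtsl genes, with that ratio at 3.12. From a single library the ratio was 2.41 to 2.50 and the median leading-transcript share 67.8% to 72.1%. The median log2 ratio of the members was -0.074 with library totals, 0.079 with spike-in totals, -0.16 by deposited TPM and 0.052 over 43 members with any count, and the median of all genes moved with the scaling, to -0.06, 0.09 and -0.13. Members past 1.5-fold were 1 by deposited TPM (Adamts10; 4.01% of genes), 3 at a mean count of 20 or more (5.29% of genes) and 9 of 43 with any count (33.0% of genes), of which 4 were past 2-fold (24.2% of genes). By deposited TPM the ratio turned from 0.16 to -0.0087 for Timp2, from 0.17 to -0.40 for Adamtsl3, from 0.056 to -0.081 for Mmp2 and from 0.048 to -0.049 for Adamtsl4. Library totals also turned Mmp2 and Adamtsl4, and spike-in totals turned Timp3, Adamts1 and Mmp15; of these 7, only Timp2 had a counting interval apart from 0. Of 90 single-member ratios under other settings, 79 moved by less than the half-width of their counting interval. Of 14 detected levels, 5 moved by more than the SD in the kallisto-layout table. No paired analysis was possible because there is a single group, and the replicate ratio cannot be made without either library. Depth limits members under 100 counts, whose intervals are wide. The cause of these shifts was not tested.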
